A study of Mus musculus with 6 samples.

Results

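The Gimap genes encode small GTPases that are abundant in lymphocytes. The members described here were all probe sets of the deposited table whose single gene symbol in the platform annotation was Gimap1, Gimap3, Gimap4, Gimap5, Gimap6, Gimap7, Gimap8 or Gimap9. They came to 11 probe sets of 45101, covering 8 genes of 18193 with a symbol, and all 11 passed the filter on dim probe sets. Gimap4, Gimap6 and Gimap7 each had a pair of probe sets and the other 5 genes had 1 each. RNA of T cells from mouse lymph nodes was hybridised to 6 Affymetrix arrays in 1 colour, of which 3 were labelled Ezh2 deficient and 3 Ezh2 fl/fl, the usual notation for alleles flanked by loxP sites. Ezh2 is the enzyme of Polycomb repressive complex 2 (PRC2), which silences genes by methylating histone H3 at lysine 27. The labels name no Cre driver, mouse strain, age or sex, and do not say whether the arrays hold separate animals or pools, so the p-values reflect no more than the variation among these 6 samples, part of which may be technical.

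Gimap proteins (GTPases of immunity-associated proteins) share a guanine nucleotide-binding domain, and several sit on intracellular membranes through a hydrophobic tail. They are known above all for keeping resting lymphocytes alive. Loss of Gimap5 in rats and mice, or of Gimap1 in mouse lymphocytes, leaves few peripheral T cells. Some members have been reported to bind proteins of the BCL2 family, and Gimap6 binds an ATG8-type autophagy protein. The genes lie side by side. In the RefSeq gene table of mouse assembly GRCm38.p6 the 8 members followed each other on chromosome 6 with no other protein-coding gene between them, and 23 protein-coding genes separated them from Ezh2 on the same chromosome. Since the order in that table runs Gimap8, Gimap9, Gimap4, Gimap6, Gimap7, Gimap1, Gimap5, Gimap3, the paralogues Gimap5 and Gimap3 are next to each other. The table also lists Gimap5 as an older name of Gimap3, and whether a probe set of one also reads the other was not examined.

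The promoters of Gimap7 and Gimap6, the genes with the largest differences between the groups, and of Gimap3, which had one of the smallest, are printed here from RefSeq (GRCm38.p6), each from 250 bases before to 50 bases after the annotated start. Capitals mark matches on either strand to the letters GGAAGT (bound by ETS factors), TGTGGT (RUNX factors), CTTTGA (TCF and LEF factors) or the core of the interferon-stimulated response element, none of which overlapped in these windows.
Gimap7 (chr6:48718371-48718670, plus strand): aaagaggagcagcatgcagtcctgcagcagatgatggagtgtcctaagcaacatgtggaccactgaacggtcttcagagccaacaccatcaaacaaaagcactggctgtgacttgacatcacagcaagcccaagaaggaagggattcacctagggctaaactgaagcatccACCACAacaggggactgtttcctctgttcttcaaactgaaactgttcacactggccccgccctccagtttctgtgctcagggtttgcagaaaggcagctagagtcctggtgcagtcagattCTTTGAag
Gimap6 (chr6:48708195-48708494, minus strand): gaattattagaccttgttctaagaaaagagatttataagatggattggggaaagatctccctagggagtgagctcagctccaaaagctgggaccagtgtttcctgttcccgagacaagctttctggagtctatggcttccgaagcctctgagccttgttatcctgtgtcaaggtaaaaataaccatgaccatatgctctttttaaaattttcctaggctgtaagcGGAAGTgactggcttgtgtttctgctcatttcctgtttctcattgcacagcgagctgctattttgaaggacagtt
Gimap3 (chr6:48770802-48771101, minus strand): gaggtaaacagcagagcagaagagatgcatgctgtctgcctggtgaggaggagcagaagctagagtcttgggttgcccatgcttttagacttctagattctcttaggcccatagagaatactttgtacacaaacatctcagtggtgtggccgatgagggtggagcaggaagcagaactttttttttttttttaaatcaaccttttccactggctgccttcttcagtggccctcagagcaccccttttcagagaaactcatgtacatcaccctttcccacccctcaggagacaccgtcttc
All 8 genes had at least 1 promoter in the table, 9 in all because Gimap8 had a pair. The ETS letters stood in 4 of the 9 windows, those of Gimap1, Gimap5, Gimap6 and Gimap9, and in 23.8% of all 32851 mouse promoters of the same length. The RUNX letters stood in 3 of 9 and in 16.8% of all promoters, and the TCF and LEF letters in 2 of 9 and 16.0%. The response element was in 0 of 9 and in 3.44% of all promoters. These are letter matches within short windows and say nothing of binding.

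The libraries were checked first. Ezh2 itself, read by 1 probe set, was at 282, 289 and 276 in Ezh2 deficient replicates 1, 2 and 3, against 579, 684 and 801 in Ezh2 fl/fl replicates 1, 2 and 3, in quantile-normalised intensity. Every deficient array lay below every fl/fl array, with a log2 difference of -1.16 (SE 0.13) and a limma adjusted p of 0.0705 over all probe sets. That p was below the threshold of 0.05 with array weights, by robust eBayes, under the deposited scaling and with Ezh2 fl/fl replicate 1 left out. It was 0.241 without the filter, 0.217 by eBayes without trend and 0.130 to 0.263 with any other array left out. The labels do not say which exons are deleted, so this probe set may read outside them. On the first principal component Ezh2 fl/fl replicate 1 stood alone, at 41.5 where the other 5 arrays were at -15.1 to -1.48, and where a Gimap value moved by over 1.5 times without it, both values are given. T cell markers were bright. The 5 of 8 markers that could be matched (Cd3d, Cd3g, Cd2, Cd3e, Cd5) summed to 46540 to 48957 in the deficient arrays and 46098 to 48251 in the fl/fl arrays.

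Markers of other cell types were summed in the same way. B cell markers (5 of 6 matched, Cd79b and Cd22 brightest) ran from 1104 to 1211 in the deficient arrays and from 979 to 1112 in the fl/fl arrays. Dendritic cell markers (5 of 6, Zbtb46 and Siglech brightest) ran from 615 to 691 in deficient arrays and 643 to 962 in fl/fl arrays, and natural killer cell markers (3 of 4, mostly Eomes, which activated and memory CD8 T cells express too) from 1084 to 1472 in deficient arrays and 932 to 1229 in fl/fl arrays. Endothelial cells, which also express Gimap genes, were represented by 6 of 6 markers, Pecam1 and Kdr brightest. They ran from 1460 to 1623 in deficient arrays and 1504 to 1933 in fl/fl arrays, mostly through Pecam1, which T cells express too. Cdh5, Tek, Lyve1 and Vwf were below the filter. Stromal markers (3 of 4, Pdpn and Col1a1 brightest) ran from 297 to 379 in deficient arrays and 244 to 327 in fl/fl arrays. Col1a1 read 136, 147 and 163 in deficient replicates 1, 2 and 3, against 122, 119 and 100 in fl/fl replicates 1, 2 and 3. Its groups were thus apart (6.55% of all tested probe sets were so placed), though they overlapped in the deposited values, and those of Pdpn overlapped. For the markers of macrophages and monocytes (6 of 6, Csf1r and Adgre1 brightest) the groups did not overlap. The sums were 952 to 1017 in deficient arrays and 1025 to 1141 in fl/fl arrays. They differed mostly through Csf1r, which averaged 264 in deficient arrays and 371 in fl/fl arrays. Adgre1 went the other way, at 229 in deficient arrays and 186 in fl/fl arrays, as the only 1 of 4 tested markers. Red blood cell markers (2 of 4) were also apart, almost wholly through Hba-a1. Their sums were 179 to 214 in deficient arrays and 224 to 299.7 in fl/fl arrays. None of the tested markers was called. Besides Cdh5, Tek, Lyve1 and Vwf, the markers Cd79a, Flt3, Cd14, Mertk, Ncr1, Klra8, Pdgfrb and Alas2 were below the filter and could not be called. Only 1 marker each was tested for natural killer cells and red blood cells. None of the matched markers was listed at 0, and their part in the Gimap values was not tested. In such bulk samples fewer cells of a type and less RNA per cell cannot be told apart.

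The Gimap family stood slightly higher in the Ezh2 deficient T cells, by amounts that did not pass the test. All 11 probe sets had a positive log2 difference (49.3% of all 27022 tested probe sets did), with a median of 0.12 against -0.0029 over all tested probe sets. The count of positive ones was 10 when replicate 2 of either group was left out, since 1424374_at of Gimap4 then turned negative. Limma called 0 of the 11 at an adjusted p under 0.05, where 0.0037% of all tested probe sets, a single one, were called. At an unadjusted p under 0.05 there were 2 Gimap probe sets, both higher (3.84% of all tested probe sets were higher at that level). The adjusted p of the 11 ran from 0.344 to 0.978. The deficient arrays lay wholly above the fl/fl arrays for 4 probe sets (6.55% of all tested probe sets), those of Gimap1 and Gimap9 and 1 each of Gimap6 and Gimap7, and the groups overlapped for the other 7.

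**Figure D1:**
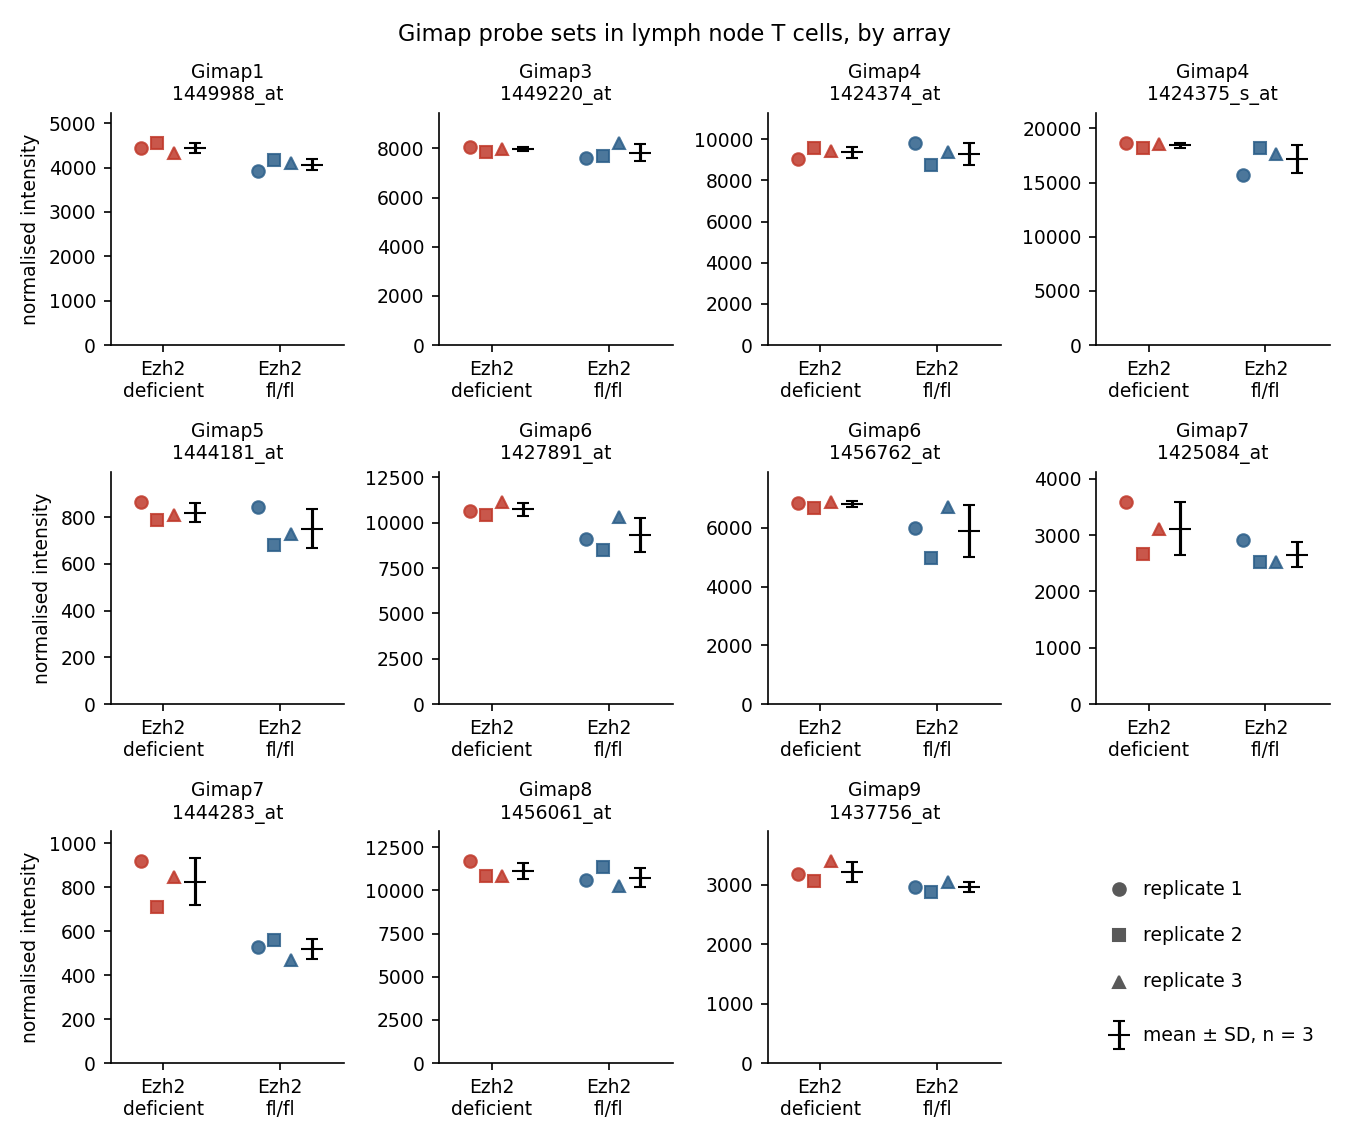
Quantile-normalised intensity (vertical axes, linear, from 0) of the 11 Gimap probe sets in 3 Ezh2 deficient arrays (red, left) and 3 Ezh2 fl/fl arrays (blue, right), with the marker shape giving the replicate and bars the mean ± SD. The groups lie fully apart for Gimap1, Gimap9, 1427891_at of Gimap6 and 1444283_at of Gimap7, the last with 710 to 918 in deficient arrays and 471 to 560 in fl/fl arrays.

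The family was also compared array by array, as the log2 deviation of each probe set from its own fl/fl mean. By this choice of reference the deviations average out over the 3 fl/fl arrays. Medians and counts of the fl/fl arrays are therefore held near the middle in advance. The 11 probe sets of an array are not independent replicates of its group. The median over the 11 probe sets was 0.13, 0.071 and 0.11 in Ezh2 deficient replicates 1, 2 and 3, against 0.00087, -0.043 and 0.013 in Ezh2 fl/fl replicates 1, 2 and 3. Deficient replicate 2 was thus the closest of its group to the fl/fl arrays. In deficient replicates 2 and 3 all 11 probe sets were above their fl/fl mean and in deficient replicate 1 there were 10, against 6, 4 and 7 in fl/fl replicates 1, 2 and 3. The exception in deficient replicate 1 was 1424374_at of Gimap4, at -0.035. The median of all tested probe sets stayed between -0.0014 and 0.0037 on every array, since quantile normalisation equalises the arrays.

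**Figure D2:**
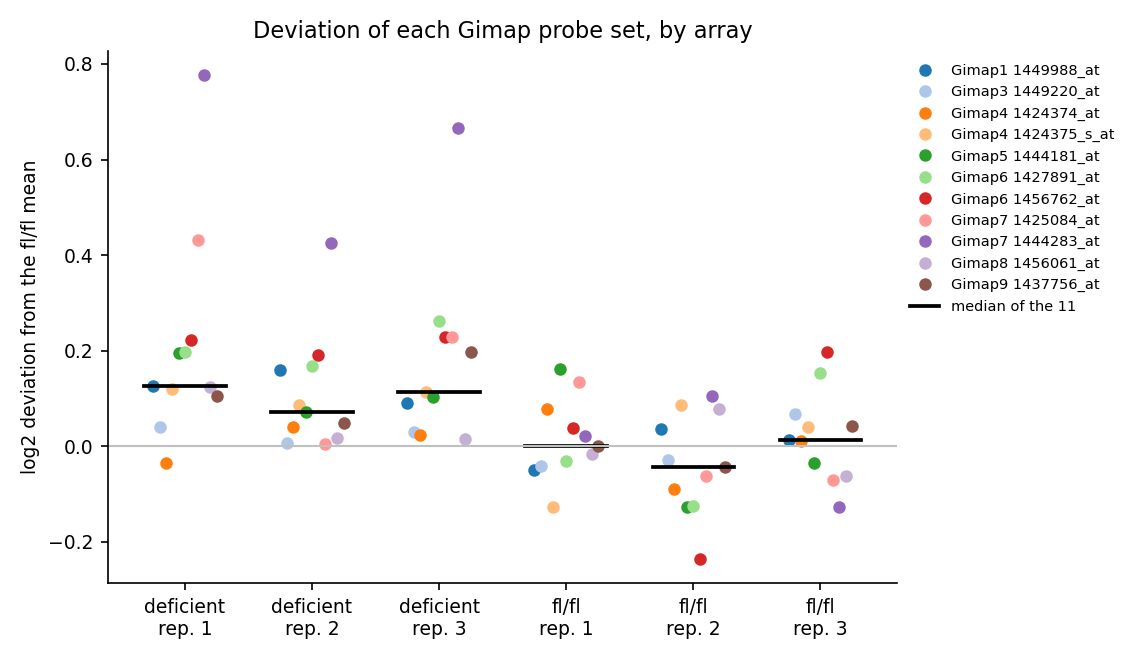
Log2 deviation of each Gimap probe set from its mean in the fl/fl arrays (vertical axis), for 3 Ezh2 deficient arrays on the left and 3 Ezh2 fl/fl arrays on the right, with a black line at the median of the 11. The medians are 0.071 to 0.13 in the deficient arrays and -0.043 to 0.013 in the fl/fl arrays, and the uppermost point of each deficient array is 1444283_at of Gimap7.

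The scaling of the arrays bears on these sizes. All 11 differences stayed positive under the deposited scaling and under median centring of the deposited values, where the family's median was 0.16 and 0.22. Of the 11 probe sets, 9 were among the brightest 2702 of those tested, and bright probe sets as a whole moved with the scaling. The share of these 2702 with a positive difference was 47.2% after quantile normalisation, 65.5% under the deposited scaling and 87% under median centring, with medians of -0.0057, 0.038 and 0.11. The calls over all probe sets split into 0 higher and 1 lower after quantile normalisation, 1 higher and 2 lower under the deposited scaling, and 1 higher and 1 lower under median centring.

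Gimap7, a small member whose human counterpart pairs with other GIMAP proteins and stimulates their GTP hydrolysis, had the largest difference of the family. Its probe set 1444283_at read 918, 710 and 848 in deficient replicates 1, 2 and 3, against 527, 560 and 471 in fl/fl replicates 1, 2 and 3. The groups did not overlap, and the lowest deficient value was that of replicate 2. The means were 826 ± 106 in the deficient arrays and 519 ± 45.1 in the fl/fl arrays (SD, n = 3 each), a fold of 1.54 with a 95% interval of 1.28 to 1.86 (limma unadjusted p = 0.000534, adjusted p = 0.344). The interval is not adjusted for the number of probe sets, so it lies above 1 although the call does not pass. The brighter probe set, 1425084_at, read 3581, 2655 and 3107 in the deficient arrays, against 2905, 2529 and 2515 in the fl/fl arrays. Here the groups overlapped, because deficient replicate 2 was below fl/fl replicate 1. The log2 difference was 0.22 (SE 0.11, adjusted p = 0.712), and 0.12 without deficient replicate 1.

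For the genes with a pair of probe sets, the log2 ratio of the dimmer to the brighter one was taken within each array. The group difference of this ratio is the difference between the fitted values of the pair, shown array by array. For Gimap7 the ratio was -1.91, -1.84 and -1.82 in the deficient arrays, against -2.37, -2.09 and -2.32 in the fl/fl arrays. The groups did not overlap. The mean ratio differed by 0.40, with an exact two-sided permutation p of 0.1, the smallest that 3 arrays against 3 can give, and 0.3 after Benjamini-Hochberg adjustment over the 3 genes so compared. For Gimap6 the mean ratio was -0.66 in both groups (difference 0.0050, exact permutation p = 1). For Gimap4 it was -0.98 in the deficient arrays and -0.88 in the fl/fl arrays (difference -0.097, exact permutation p = 0.6). With 3 arrays a group no pair could pass a threshold of 0.05, so whether the Gimap7 probe sets changed unequally is not settled.

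**Figure D3:**
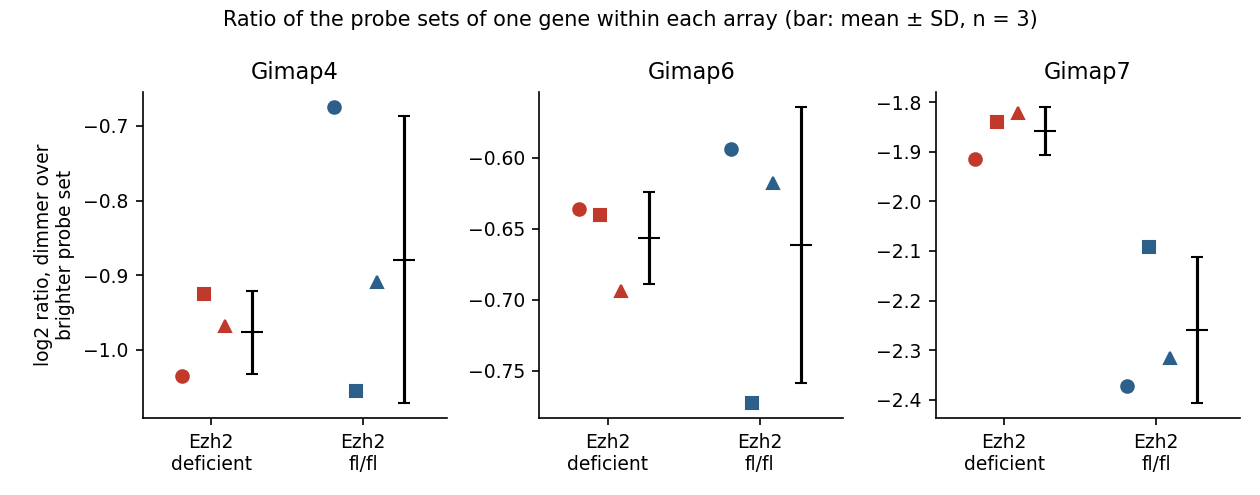
Log2 ratio of the dimmer to the brighter probe set of Gimap4, Gimap6 and Gimap7 (vertical axes, each with its own range) within each of 3 Ezh2 deficient arrays (red, left) and 3 Ezh2 fl/fl arrays (blue, right), with marker shapes for replicates 1 (circle), 2 (square) and 3 (triangle) and bars at the mean ± SD. The groups lie apart for Gimap7, at -1.91 to -1.82 in deficient arrays and -2.37 to -2.09 in fl/fl arrays, and overlap for the other genes.

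Gimap6, which binds an ATG8-family protein and is linked to autophagy and T cell survival in mice, came next. Its brighter probe set 1427891_at read 10647, 10438 and 11129.9 in deficient replicates 1, 2 and 3, against 9084, 8511 and 10331 in fl/fl replicates 1, 2 and 3. Every deficient array was above every fl/fl array, though by little over fl/fl replicate 3. The fold was 1.16 (95% interval 1.03 to 1.29, unadjusted p = 0.0162, adjusted p = 0.623). The other probe set, 1456762_at, gave 6837, 6682 and 6865 in the deficient arrays, against 6006, 4962 and 6718 in the fl/fl arrays. Its fold was also 1.16 (95% interval 0.997 to 1.35, adjusted p = 0.695), with overlap through fl/fl replicate 3. On both probe sets the fl/fl arrays were spread more widely than the deficient ones, with fl/fl replicate 2 lowest and fl/fl replicate 3 highest. The log2 difference of 1456762_at dropped to 0.093 without fl/fl replicate 2.

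Gimap1, which mature T and B cells of mice need to persist, differed by a small amount. It read 4445, 4547 and 4333 in deficient replicates 1, 2 and 3, against 3927, 4172 and 4106 in fl/fl replicates 1, 2 and 3. The groups did not overlap, and the fold was 1.09 (95% interval 0.997 to 1.19, adjusted p = 0.700). Gimap9, a member of poorly known function, read 3188, 3063 and 3399 in the deficient arrays, against 2963, 2874 and 3049 in the fl/fl arrays. These groups were also apart, with deficient replicate 2 only just above fl/fl replicate 3, and the fold was 1.08 (95% interval 0.977 to 1.20, adjusted p = 0.729). The log2 difference of Gimap9, 0.12, was 0.076 without deficient replicate 3.

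Gimap5 and Gimap3, the neighbouring paralogues tied to T cell survival, both had overlapping groups. The assignment of each signal to 1 of the pair is uncertain, since cross-matching of their probes was not examined. Gimap5, read by a single probe set (1444181_at), was at 864, 789 and 807 in deficient replicates 1, 2 and 3, against 842, 683 and 730 in fl/fl replicates 1, 2 and 3. The overlap came from fl/fl replicate 1, and the fold was 1.09 (95% interval 0.926 to 1.28, adjusted p = 0.826). Its log2 difference of 0.12 was 0.21 without fl/fl replicate 1 and 0.060 without fl/fl replicate 2. Gimap3 read 8046, 7868 and 7991 in the deficient arrays, against 7606, 7674 and 8208 in the fl/fl arrays, so that the highest value of all was in an fl/fl array. Its fold was 1.02 (95% interval 0.940 to 1.10, adjusted p = 0.933), and its log2 difference of 0.026 was between 0.0056 (without fl/fl replicate 1) and 0.063 (without fl/fl replicate 3) with an array left out.

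Gimap4 and Gimap8 likewise had overlapping groups. Gimap4 is dispensable for T cell development in mice and affects how fast T cells complete apoptosis. Its probe set 1424374_at read 9067, 9562 and 9452 in deficient replicates 1, 2 and 3, against 9808, 8733 and 9368 in fl/fl replicates 1, 2 and 3, with both the highest and the lowest value in fl/fl arrays. The log2 difference was 0.010 (SE 0.056, adjusted p = 0.978), and it was 0.051 without fl/fl replicate 1, -0.035 without fl/fl replicate 2 and -0.0057 without deficient replicate 2. The brighter probe set 1424375_s_at, whose name ending marks probes that can match several transcripts, read 18633, 18196 and 18534 in deficient arrays, against 15678, 18196 and 17626 in fl/fl arrays. Its log2 difference of 0.11 (adjusted p = 0.718) was 0.043 without fl/fl replicate 1, the array with the low value. Gimap8, a large member with several GTPase domains in one protein, read 11680.2, 10843 and 10826 in the deficient arrays, against 10599, 11321 and 10257 in the fl/fl arrays. Its groups overlapped, with a fold of 1.04 (95% interval 0.950 to 1.13, adjusted p = 0.868), and its log2 difference of 0.052 was 0.016 without deficient replicate 1.

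The intervals of the quantile-normalised fit also give a range of differences for each probe set taken by itself. They do not cover the choice of scaling, and the family's median of 0.12 was 0.22 under median centring. For 10 of the 11 probe sets the upper end of the unadjusted 95% interval was below a 1.5-fold difference, at most 1.39-fold, and across all 11 no lower end was under 0.922-fold. The exception was 1444283_at of Gimap7, so that 7 of the 8 genes had every probe set within this range. Within groups the SD of the 11 probe sets ran from 1.14% to 15.0% of the mean.

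**Figure D4:**
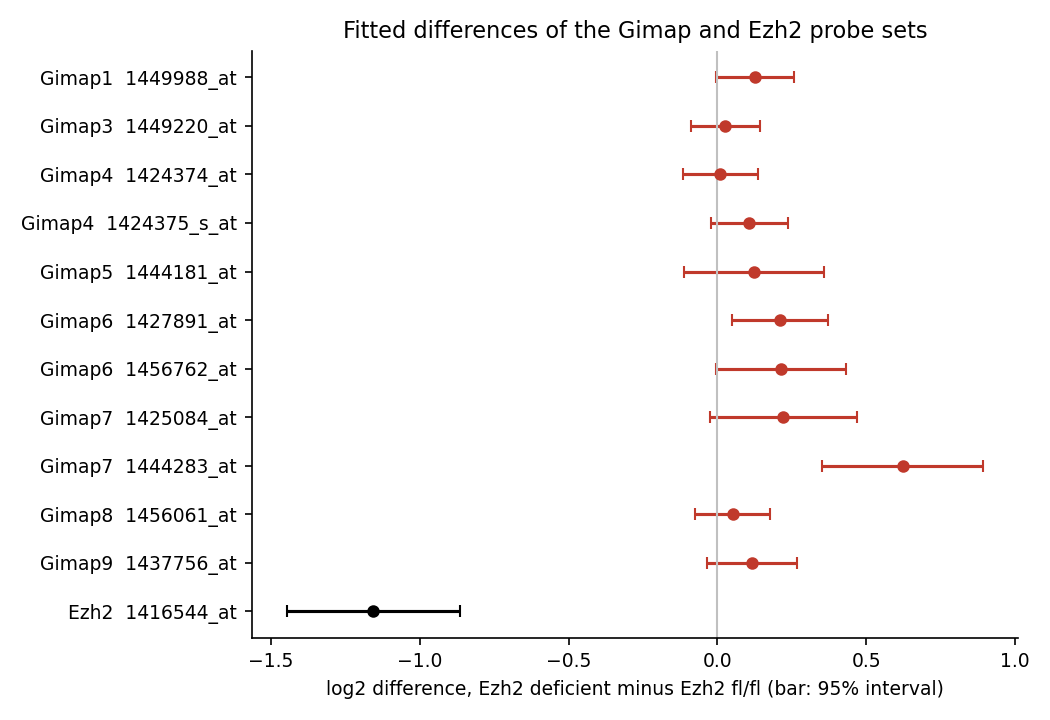
Fitted log2 difference (horizontal axis, Ezh2 deficient minus Ezh2 fl/fl) of the 11 Gimap probe sets in red and of the Ezh2 probe set in black, with unadjusted 95% intervals from limma over 3 arrays a group. The Gimap points run from 0.010 to 0.62 and Ezh2 is at -1.16. The intervals of 2 Gimap probe sets, 1427891_at and 1444283_at, lie above 0.

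Ezh2 and the Gimap cluster share a chromosome, so the genes around them were set in order, each by its brightest probe set. The window held the protein-coding genes between Ezh2 and the cluster and 10 beyond either end. Of these 43 neighbours 27 had a probe set and 23 were tested, of which 10 had a positive and 13 a negative difference (median -0.016, -0.047 to 0.040 with an array left out and -0.081 under the deposited scaling). Limma called 0 of them, with 1 at an unadjusted p under 0.05 (7.22% of all tested probe sets). That gene was the zinc finger gene Zfp746, at 755 ± 61.3 in deficient arrays and 635 ± 42.0 in fl/fl arrays (log2 difference 0.23, adjusted p = 0.689). Next by p was Lrrc61, a leucine-rich repeat gene, at 395 ± 18.4 in deficient arrays and 502 ± 102 in fl/fl arrays (log2 difference -0.30, or -0.16 without fl/fl replicate 1, adjusted p = 0.706). The tested genes flanking the cluster directly, named for their place, were Zfp775 at -0.48 (95% interval -1.40 to 0.43) and Tmem176b at -0.070 (95% interval -0.33 to 0.18). The 8 Gimap genes in between were all positive by their brightest probe sets, at 0.026 to 0.22, and whether they differ from the flanking genes was not tested.

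**Figure D5:**
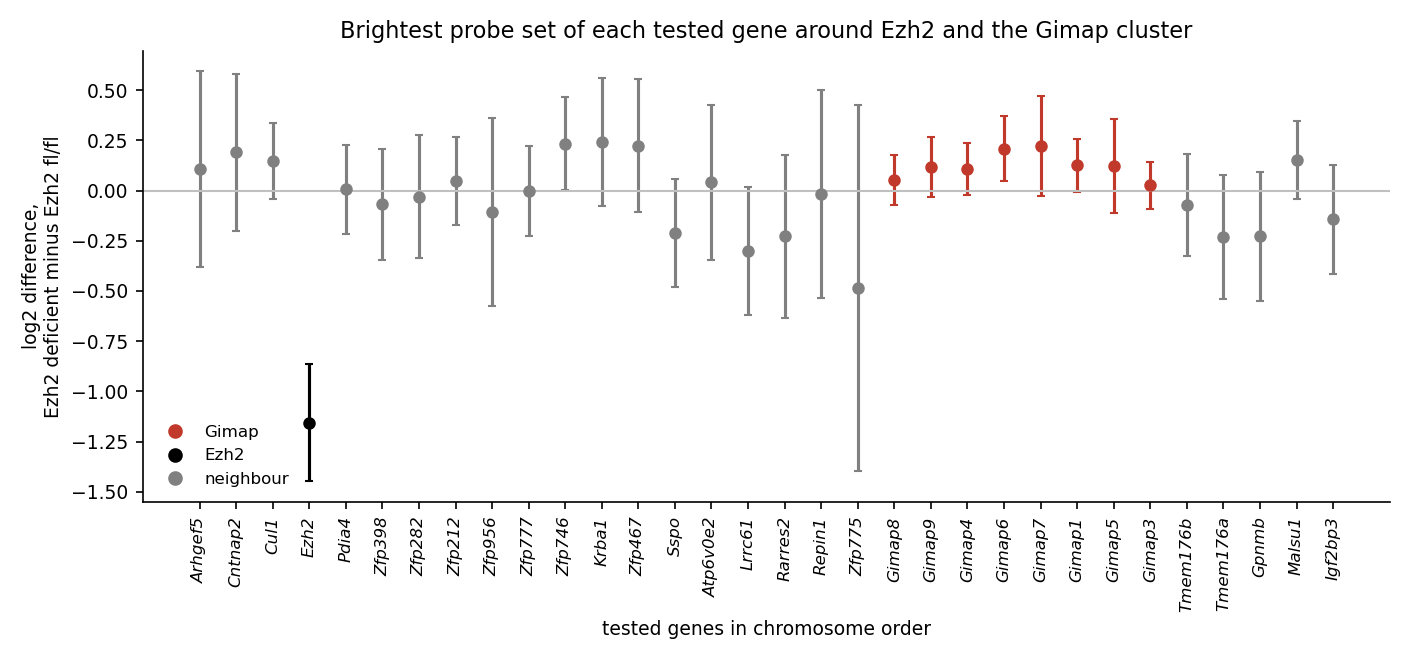
Log2 difference (vertical axis, Ezh2 deficient minus Ezh2 fl/fl, brightest probe set of each gene with its unadjusted 95% interval over 3 arrays a group) of the tested genes in chromosome order, with Gimap genes in red, Ezh2 in black and the 23 neighbours in grey. Ezh2 is at -1.16, the 8 Gimap genes run from 0.026 to 0.22, and the neighbours lie on both sides of 0.

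Lists of genes of T cell survival, quiescence and autophagy were read in the same fit, each gene by its brightest probe set. Of 15 tested BCL2 family genes, 9 had a positive and 6 a negative difference (median 0.069), and 0 were called (0.0037% of all tested probe sets). At an unadjusted p under 0.05 there were 3 higher and 1 lower (7.22% of all tested probe sets, 3.84% on the higher side). The smallest p values belonged to activators of apoptosis. Bbc3, which encodes PUMA, was at 837, 1056 and 980 in the deficient arrays, against 472, 566 and 676 in the fl/fl arrays (log2 difference 0.71, adjusted p = 0.344). Pmaip1, which encodes NOXA, averaged 369 ± 110 in deficient arrays and 182 ± 65.0 in fl/fl arrays (log2 difference 0.88, adjusted p = 0.581). For each of these genes, picked by smallest p, every deficient array was above every fl/fl array (6.55% of all tested probe sets). The median of the list ran from -0.060 without fl/fl replicate 1 to 0.13 without fl/fl replicate 3, and was 0.16 under median centring.

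Receptors and signal transducers of survival cytokines were read next. Of 14 tested genes 7 had a positive and 7 a negative difference (median 0.0059, -0.024 to 0.027 with an array left out and 0.091 under median centring), and 0 were called. At an unadjusted p under 0.05 there were 2, both higher (3.84% of all tested probe sets). Il6st, the shared receptor chain of the interleukin-6 group, was at 0.43 (adjusted p = 0.636) with overlapping groups. The other tested probe sets of Il6st had smaller differences, at 0.27, 0.18 and 0.069. Il2rb, a chain of the interleukin-2 and interleukin-15 receptors, averaged 1587 ± 49.5 in deficient arrays and 1306 ± 236 in fl/fl arrays (log2 difference 0.29, or 0.15 without fl/fl replicate 1, adjusted p = 0.682). The other probe set of Il2rb was at 0.19 with overlapping groups.

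Factors that hold T cells quiescent, among which Slfn2 is needed for T cells to stay at rest in mice, had 13 of 18 tested genes higher and 5 lower (49.3% of all tested probe sets were higher). Their median was 0.064 (0.026 without fl/fl replicate 2, 0.10 without fl/fl replicate 1, 0.11 under the deposited scaling and 0.18 under median centring), with 0 called and 3 at an unadjusted p under 0.05, all higher (3.84% of all tested probe sets). Slfn2 read 6181, 7217 and 6104 in the deficient arrays, against 5197, 2710 and 5109 in the fl/fl arrays (log2 difference 0.63, adjusted p = 0.621). Without fl/fl replicate 2, which was far below the rest, the difference was 0.33. Its relative Slfn1 was at 0.36 (adjusted p = 0.623) with overlapping groups. Of 19 ATG8 autophagy genes, 10 had a positive and 9 a negative difference, 0 were called, and 2 were at an unadjusted p under 0.05, both higher (3.84% of all tested probe sets). The median of 0.046 was -0.0031 with the filter at the 60th percentile, -0.0033 with array weights, 0.00060 without fl/fl replicate 1 and 0.10 under median centring. Gabarapl1, an ATG8 protein, averaged 448 ± 9.70 in deficient arrays and 322 ± 57.0 in fl/fl arrays (log2 difference 0.44, adjusted p = 0.616), and the ATG8 protease gene Atg4c was at 0.50 (adjusted p = 0.683; 0.29 without fl/fl replicate 1 or with the higher pseudocount), at 174 ± 26.5 in deficient arrays and 113 ± 36.1 in fl/fl arrays.

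Among genes outside the family, the array profile closest to the mean of the 11 Gimap probe sets belonged to Mgat4a, a glycosyltransferase gene. Likeness was the root mean square difference of values centred on each probe set's own mean over the 6 arrays, among 12267 genes, and it was 0.022 log2 units for Mgat4a. The family's mean profile was 0.13, 0.028 and 0.095 in deficient replicates 1, 2 and 3, against -0.068, -0.12 and -0.062 in fl/fl replicates 1, 2 and 3. Mgat4a was at 0.095, 0.020 and 0.13 in the deficient arrays, against -0.072, -0.13 and -0.049 in the fl/fl arrays. Rnf138, a ubiquitin ligase gene, followed at 0.027 and Lnpk, a gene of endoplasmic reticulum junctions, at 0.028. Within the family the same measure was smallest for Gimap9, at 0.045, and largest for 1444283_at of Gimap7, at 0.25. The ranking rests on 6 arrays and is a description.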

How the data were processed

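RNA of mouse lymph node T cells was measured on 6 single-colour arrays, 3 Ezh2 deficient and 3 Ezh2 fl/fl, grouped by the labels and numbered within each group in accession order. The authors deposited 1 linear intensity per probe set and array. Their software is not given in the sources used here. The mean of the deposited values, trimmed by 2% at each end, was 500.002 on every array, and medians ran from 163.3 to 188.1. The intensities were quantile normalised (limma 3.58.1, R 4.3.3) and turned into log2(intensity + 43.3), the pseudocount being the 20th percentile of positive values. Folds are on this scale and are conservative for dim probe sets. Controls (64) and probe sets below the 40th percentile of mean log2 value were left out, leaving 27022.

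Each was fitted with limma (eBayes with trend, two-sided, 4 residual degrees of freedom), and called at a Benjamini-Hochberg adjusted p under 0.05 over all 27022. Intervals are unadjusted. The number of arrays limits the precision. Names came from the platform annotation, with 34945 probe sets of 1 symbol, 932 of several and 9160 of none. The members, gene lists and tests were chosen with earlier results of these data known. Named were all Gimap probe sets, Ezh2, the 2 genes of smallest p per list (up to 4 if called), the 2 brightest markers per list and the 3 genes of closest profile. Others were chosen after their values were seen. Alternatives were the deposited scaling, median centring, pseudocounts 4 times lower and higher, other filters, eBayes without trend, robust eBayes, array weights, other thresholds and each array left out. The fitting step was tested on simulated data.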

Additional observations from a re-analysis of the deposited data

How the results depend on the processing

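The 0 Gimap calls held under every alternative fit, at an adjusted p under 0.10, and with each array left out (0 to 0), and none of the 15 alternative fits of any Gimap probe set passed. At an unadjusted p under 0.05 the count was 2, and with that threshold alone the lists of autophagy, BCL2 family, chromosome neighbour, cytokine and quiescence genes had 2 of 19, 4 of 15, 1 of 23, 2 of 14 and 3 of 18 tested genes, against 1951 of 27022 probe sets (7.22%). The 2 Gimap probe sets at that level became 5 under the deposited scaling, 6 under median centring, 1 by eBayes without trend and 1 with the brightest probe set of each gene, and 1 to 3 with an array left out (1 when Ezh2 deficient replicate 3 was dropped, 3 when deficient replicate 2, fl/fl replicate 1 or fl/fl replicate 3 was). The family's median of 0.12 was 0.22 under median centring, where 8 rather than 4 probe sets had groups apart (5 under the deposited scaling), and 0.095 to 0.15 with an array left out. The shares of all tested probe sets with groups apart, or at an unadjusted p under 0.05, were not taken under these other scalings. The Gimap counts there thus have no background, while 87% of the brightest 2702 probe sets were positive under median centring. The cause of the shifts with scaling was not tested beyond the shift of bright probe sets given above.

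The count of 11 higher was 10 when either replicate 2 was dropped, because 1424374_at of Gimap4 turned to -0.035 (without fl/fl replicate 2) and -0.0057 (without deficient replicate 2). Its values with an array left out ran from -0.035 to 0.051, the highest without fl/fl replicate 1. The single call over all probe sets became 3 under the deposited scaling, by robust eBayes or with array weights, 2 under median centring, 6 at an adjusted p under 0.10, and 1 to 6 with an array left out (3 when fl/fl replicate 1 was dropped and 6 when deficient replicate 2 was). Over the alternatives the adjusted p of Ezh2 ran from 0.0306 (without fl/fl replicate 1) to 0.263 (without deficient replicate 3). Ezh2 passed at -1.19 under the deposited scaling (adjusted p = 0.0421), -1.16 by robust eBayes (adjusted p = 0.04997) and -1.20 with array weights (adjusted p = 0.0346), and ran from -1.28 to -1.05 with an array left out. No paired analysis was possible because the sample titles give each array a number of its own, shared with no array of the other group. The 3 arrays a group limit the precision of all these values.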
